A study of Mus musculus with 12 samples.

Results

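The transcripts described are those of 10 CC chemokines that dendritic cells (DCs) and other myeloid cells are known to make: Ccl22, Ccl17, Ccl5, Ccl3, Ccl4, Ccl2, Ccl7, Ccl12, Ccl6 and Ccl9. They were chosen by name, and every probe set of the array annotated to only one of these symbols was taken. This gave 12 probe sets for the 10 genes, among 45101 probe sets and 18193 genes with a symbol of their own. All 10 genes passed the filter on dim signals.

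DCs were obtained from mouse spleen by selection on CD11c beads followed by flow sorting. The mice were alymphoplasia (aly) animals, which carry a mutated Map3k14 (the kinase NIK) and lack lymph nodes, or heterozygous littermates, which carry 1 mutated copy and are called wild type (WT) here. They were left untreated, or were injected into the peritoneum with 25 micrograms of LPS, a ligand of Toll-like receptor 4, together with 100 micrograms of the agonistic anti-CD40 antibody FGK4.5, and their DCs were taken 6 hours later. The 4 groups (WT untreated, WT treated, aly untreated, aly treated) had 3 arrays each, and each array held DCs pooled from 3 mice, so the errors below describe the spread between pools. The age, sex and strain background of the mice were not stated. NIK is altered in every cell of an aly mouse, and LPS with anti-CD40 acts on many cells of the animal, so these are not changes of DCs in isolation. In these bulk samples, fewer cells of a type and less RNA per cell cannot be told apart.

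CC chemokines are small secreted proteins with adjacent cysteines near their start, and they draw leukocytes through G protein-coupled receptors. Ccl22 and Ccl17 are the ligands of CCR4 on activated, helper and regulatory T cells, and mature DCs are a known source of both. Ccl5, Ccl3 and Ccl4 attract T cells, natural killer cells and monocytes, Ccl2, Ccl7 and Ccl12 are ligands of CCR2 and recruit monocytes, and Ccl6 and Ccl9 are mouse chemokines of myeloid cells that act on CCR1. NIK drives the non-canonical NF-kB pathway, in which the NF-kB subunits encoded by Nfkb2 and Relb enter the nucleus after signals such as CD40.

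Ccl22 and Ccl17 lie close together on mouse chromosome 8, and Ccl6 and Ccl9 on chromosome 11. The 250 bases before a transcript start of these 4 genes are shown, a choice made with the results below known. Whether the members of a pair differ from each other in their changes was not tested. They come from RefSeq on build GRCm38.p6, each on the strand of its gene: chr8:94745434-94745683 (Ccl22, plus strand), chr8:94810203-94810452 (Ccl17, plus strand), chr11:83593088-83593337 (Ccl6, minus strand) and chr11:83578637-83578886 (Ccl9, minus strand). The RefSeq gene of Ccl17 begins at 94809380, so its window lies inside the span of that gene. Capitals mark matches, on either strand, to the loose form of the kB element that NF-kB binds, which is GGG, any 5 bases, then CC.
Ccl22: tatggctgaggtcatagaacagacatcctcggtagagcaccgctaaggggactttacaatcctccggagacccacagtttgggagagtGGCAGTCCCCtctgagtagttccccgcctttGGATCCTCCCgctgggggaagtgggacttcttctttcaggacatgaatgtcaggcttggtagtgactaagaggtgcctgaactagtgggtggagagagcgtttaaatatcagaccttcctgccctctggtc
Ccl17: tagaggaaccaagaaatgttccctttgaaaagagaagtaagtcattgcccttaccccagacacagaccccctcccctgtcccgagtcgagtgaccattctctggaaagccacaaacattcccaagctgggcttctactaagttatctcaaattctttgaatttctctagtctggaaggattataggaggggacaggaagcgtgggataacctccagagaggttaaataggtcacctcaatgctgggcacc
Ccl6: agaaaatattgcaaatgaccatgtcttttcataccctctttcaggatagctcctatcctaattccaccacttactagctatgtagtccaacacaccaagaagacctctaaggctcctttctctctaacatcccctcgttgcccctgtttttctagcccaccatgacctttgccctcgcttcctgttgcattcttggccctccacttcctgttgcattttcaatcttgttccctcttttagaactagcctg
Ccl9: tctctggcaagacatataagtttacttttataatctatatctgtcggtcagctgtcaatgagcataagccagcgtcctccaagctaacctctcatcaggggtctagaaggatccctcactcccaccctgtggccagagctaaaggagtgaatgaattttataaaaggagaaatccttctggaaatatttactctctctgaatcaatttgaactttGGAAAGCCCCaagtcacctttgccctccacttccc

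The window of Ccl22 held 2 matches, which begin at -162 and -131 relative to the start, and that of Ccl9 held 1, at -35. No match lay in the windows of Ccl17 and Ccl6. A match was found in 45.8% of 32851 such windows of the genome. The match of Ccl9 also fits a stricter form contained in the looser one (GGG, any 2 bases, then TTTCC), which 1.41% of windows hold. Windows were found for 6 of the 10 genes. These matches describe letters and not binding, and their part in the readings of these genes was not tested.

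Array quality differed between the groups. The log2 of 3' over 5' signal was averaged over the Actb and Gapdh controls. It was 1.373 to 1.834 on WT arrays and 2.169 to 5.659 on aly arrays. The RNA was amplified in 2 rounds, so this ratio reads RNA integrity and amplification together. Aly treated replicate 1 stood apart from the other arrays, with the ratio of 5.659, hybridisation controls of 24400 (1933 to 3739 elsewhere) and rank correlations with the others of 0.59 to 0.721. The poly-A spike-in controls were lower on replicate 1 of every group (4.292 to 19.77) than on replicates 2 and 3 (50.74 to 460.2). The labels state no batch, so the spike-in batch used below is only a grouping read from these controls. Intensities of the DC genes Itgax, which encodes CD11c, and Flt3 were 229.7 to 3391 and 267.4 to 1448.8 over all arrays. In WT, Itgax read 1708 to 3391 untreated and 358 to 2135.1 treated, and Flt3 853.7 to 1448.8 and 584.5 to 948.5. Zbtb46 read 749.8 to 905.7 in untreated WT and 216 to 1183 in untreated aly. All 6 DC genes summed to 41470 to 47870 and 50850 to 54680 in these groups. After treatment the sums were 28740 to 36360 in WT and 39000 to 95650 in aly. None of the 6 was called with all arrays. Without aly treated replicate 1, Itgax was called lower with treatment in WT. The 3 measured T cell genes read 1.2 to 46.7 (Cd3g), 8.7 to 184 (Cd5) and 3.8 to 120.4 (Thy1). Of 5 B cell genes, Ms4a1 read 96.8 to 931.1 and Cd79b 43.7 to 382.7, and the others 3.7 to 115.6. Of 12 genes of red pulp macrophages, 6 were called higher in untreated aly than in untreated WT samples and 5 in treated ones. Of all genes, 0.499% and 2.74% were. Without aly treated replicate 1 these counts were 10 and 4, beside 1.92% and 4.13% of all genes. The summed intensity of the 12 genes was 28220 to 61960 in aly and 2471 to 17250 in WT samples. In WT it was 17250 and 14390 on untreated and treated replicate 1, and 2471 to 4883 on the other arrays.

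In WT DCs the treatment raised Ccl22, Ccl5 and Ccl17 and lowered Ccl6. These 4 of the 10 chemokines were called (adjusted limma p under 0.05), 3 higher and 1 lower, where 9.71% of 15019 genes were called, 4.95% higher and 4.75% lower. The median log2 change was 0.91 over the 10 chemokines and -0.116 over all genes. The median of the chemokines lay between Ccl2 (0.78) and Ccl12 (1.04), both dim and not resolved, as given below. Of 7 genes of the cDC1 subset of DCs, 5 were called lower in this comparison, and their part in the chemokine changes was not tested. Arrays of the groups did not overlap for 5 chemokines that read higher (14.3% of all genes) and 1 that read lower (22.1%). Ccl22, Ccl17, Ccl5, Ccl4 and Ccl12 read higher, and Ccl6 lower. Except on WT treated replicate 1, the Ccl12 values of these groups lay below the 40th percentile of the array, where order carries little meaning. Log2 changes are on the scale of log2(intensity + 16), with the standard error of the fit and n = 3 arrays per group.

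Ccl22 had intensities of 102.5, 78.2 and 82.7 on untreated WT replicates 1 to 3 and of 6907.9, 2740.9 and 7749 on treated ones. Every treated array stood far above every untreated one, and treated replicate 2 was the lowest of the treated. The log2 change was 5.68 ± 0.45, a 51.2-fold rise (adjusted p = 1.93e-06). It lay between 5.40 and 6.15 when any 1 of the 12 arrays was left out, and it was called each time.

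Ccl17, the other CCR4 ligand, read 20.7, 22.7 and 11.9 on untreated WT replicates 1 to 3 and 301.1, 85.6 and 182.3 on treated ones. The groups did not overlap, although its untreated intensities lay near the 40th percentile of the array (14.1 to 34.8) and near the added 16, which lowers its fold. The rise was 5.44-fold (log2 change 2.44 ± 0.67, adjusted p = 0.031). The call was lost without untreated replicate 1, 2 or 3 or treated replicate 1 or 3 (adjusted p = 0.0865, 0.073, 0.117, 0.148 and 0.114), and it rests on few arrays. With 64 added before the logarithm the change of Ccl17 was 1.53 and not called (adjusted p = 0.133).

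Ccl5, also called RANTES, read 1680.8, 2060.2 and 844.4 on untreated WT replicates and 11985.6, 14125.1 and 15129.3 on treated ones. The treated arrays lay close together and above all untreated ones. The rise was 9.47-fold (log2 change 3.24 ± 0.50, adjusted p = 0.000548). It was called without any 1 of the 12 arrays (2.87 to 3.50). Natural killer cells also make Ccl5, and of 6 genes of natural killer cells, Gzma and Gzmb rose in the same comparison. Their summed intensity went from 144.9 to 317.5 on untreated arrays to 597.6 to 2515 on treated ones. Ncr1, a receptor gene of the same list, read 10.5 to 15.9 untreated and 10.3 to 21.8 treated, near the 40th percentile of the arrays. The part of such cells in the result was not tested.

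Ccl6 went the other way. Its main probe set read 478, 484.8 and 829.1 on untreated WT replicates 1 to 3 and 104.8, 162.7 and 97.7 on treated ones, without overlap. The log2 change was -2.14 ± 0.55, a 4.4-fold fall (adjusted p = 0.0219). The call was lost without untreated replicate 1 or 3 or treated replicate 1 or 3 (adjusted p = 0.0552, 0.108, 0.0844 and 0.1) and with 1 added in place of 16 (0.0603). The second probe set of Ccl6, of a type that can match several transcripts, read 182.6 to 232.7 untreated and 25.3 to 37.2 treated. Its log2 change was -2.15 (adjusted p = 0.00597), so both probe sets gave the fall.

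**Figure D1:**
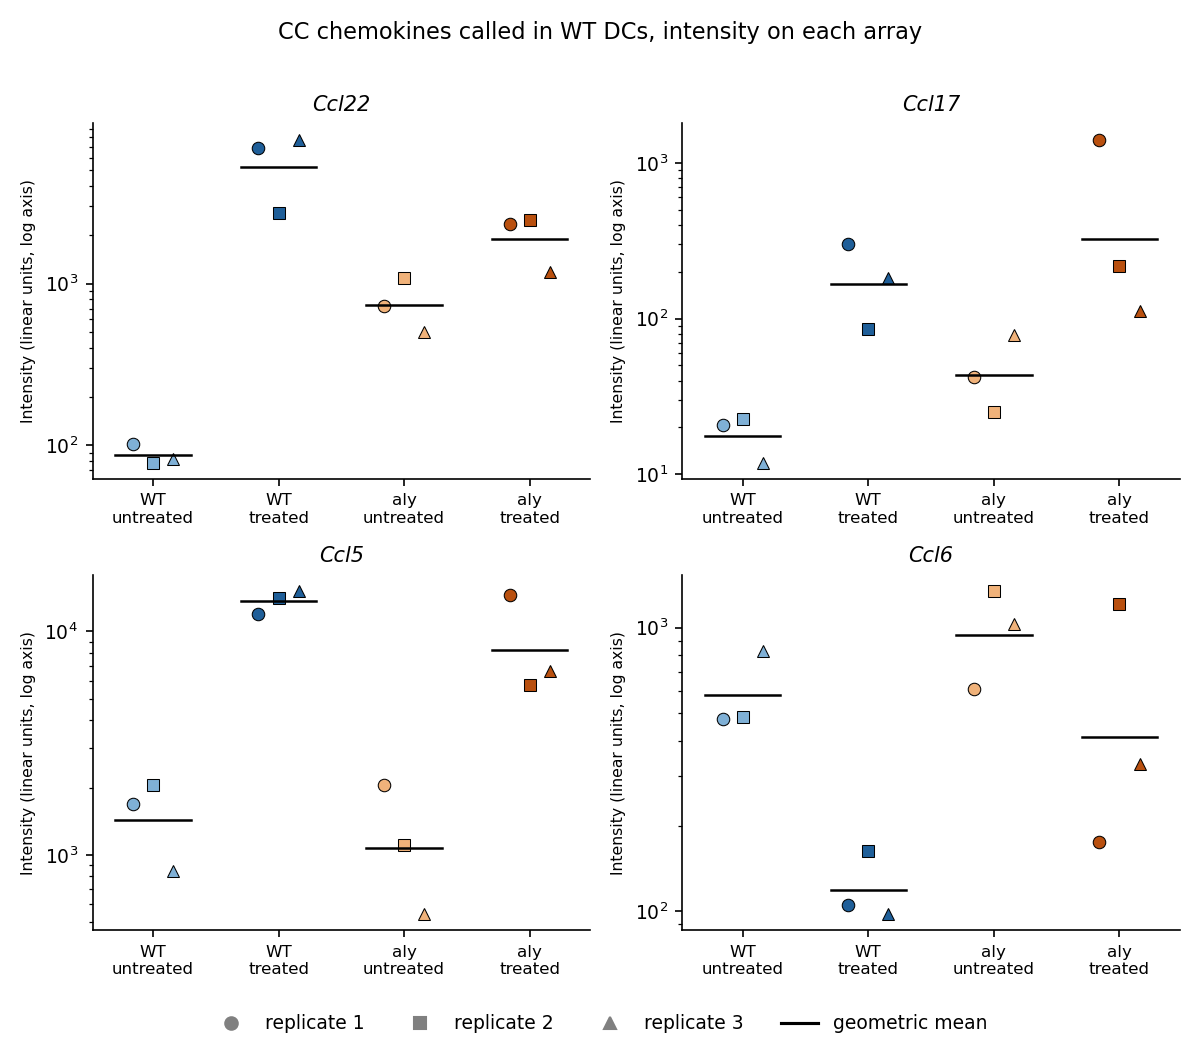
Intensity (linear units on a logarithmic axis) of Ccl22, Ccl17, Ccl5 and Ccl6 on each of the 12 arrays, by group. Symbols show the replicate and bars the geometric mean of 3 arrays. Ccl22 is already at 502.1 to 1085.7 in untreated aly DCs, against 78.2 to 102.5 in untreated WT DCs, and Ccl17 reaches 1407.2 on aly treated replicate 1.

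The other 6 chemokines were not called in WT. Ccl4, which shares attracted cells with Ccl5, read 126.6, 66.6 and 80.9 untreated and 280.1, 207.9 and 135.2 treated. The groups did not overlap, yet the log2 change of 1.04 ± 0.76 missed the threshold (adjusted p = 0.471). Without aly treated replicate 1 it was 1.04 ± 0.36 (adjusted p = 0.0532). Its relative Ccl3 read 240.1, 91.2 and 116 untreated and 367.4, 291.8 and 99.2 treated, with overlap (0.64 ± 0.47, adjusted p = 0.478).

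Transcripts of the CCR2 ligands stayed dim. Ccl2 was above the 40th percentile of the array on 4 of 12 arrays, and Ccl7 and Ccl12 on 3 each. Ccl2 read 12.9, 3.2 and 6 on untreated WT arrays and 68.8, 5.3 and 17.9 on treated ones. Ccl7 covered 6.5 to 24.6 and 7.6 to 32.6. Ccl12 read 0.8, 0.7 and 0.9 untreated and 104.2, 3 and 2.2 treated, so that 1 array of 3 carried nearly the whole signal. For all 3 the highest treated value was on replicate 1, an array on which the marginal zone macrophage genes also summed to 5768 (498.9 and 548.9 on the others). Nearly all of that sum was Marco (5745.1). Of the 3 marginal zone genes, Marco was called higher and Cd209b lower with treatment in WT. At the intensities of these CCR2 ligands a change is not resolved.

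Ccl9, which lies close to Ccl6, read 200.9, 112.7 and 232.9 untreated and 200.9, 238.7 and 222.7 treated. The log2 change was 0.31 ± 0.36 (95% interval -0.47 to 1.08, adjusted p = 0.706), while Ccl6 fell. The interval of Ccl9 thus leaves out a fall of the size of Ccl6. A second, dim probe set of Ccl9 gave 0.83 (adjusted p = 0.33).

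**Figure D2:**
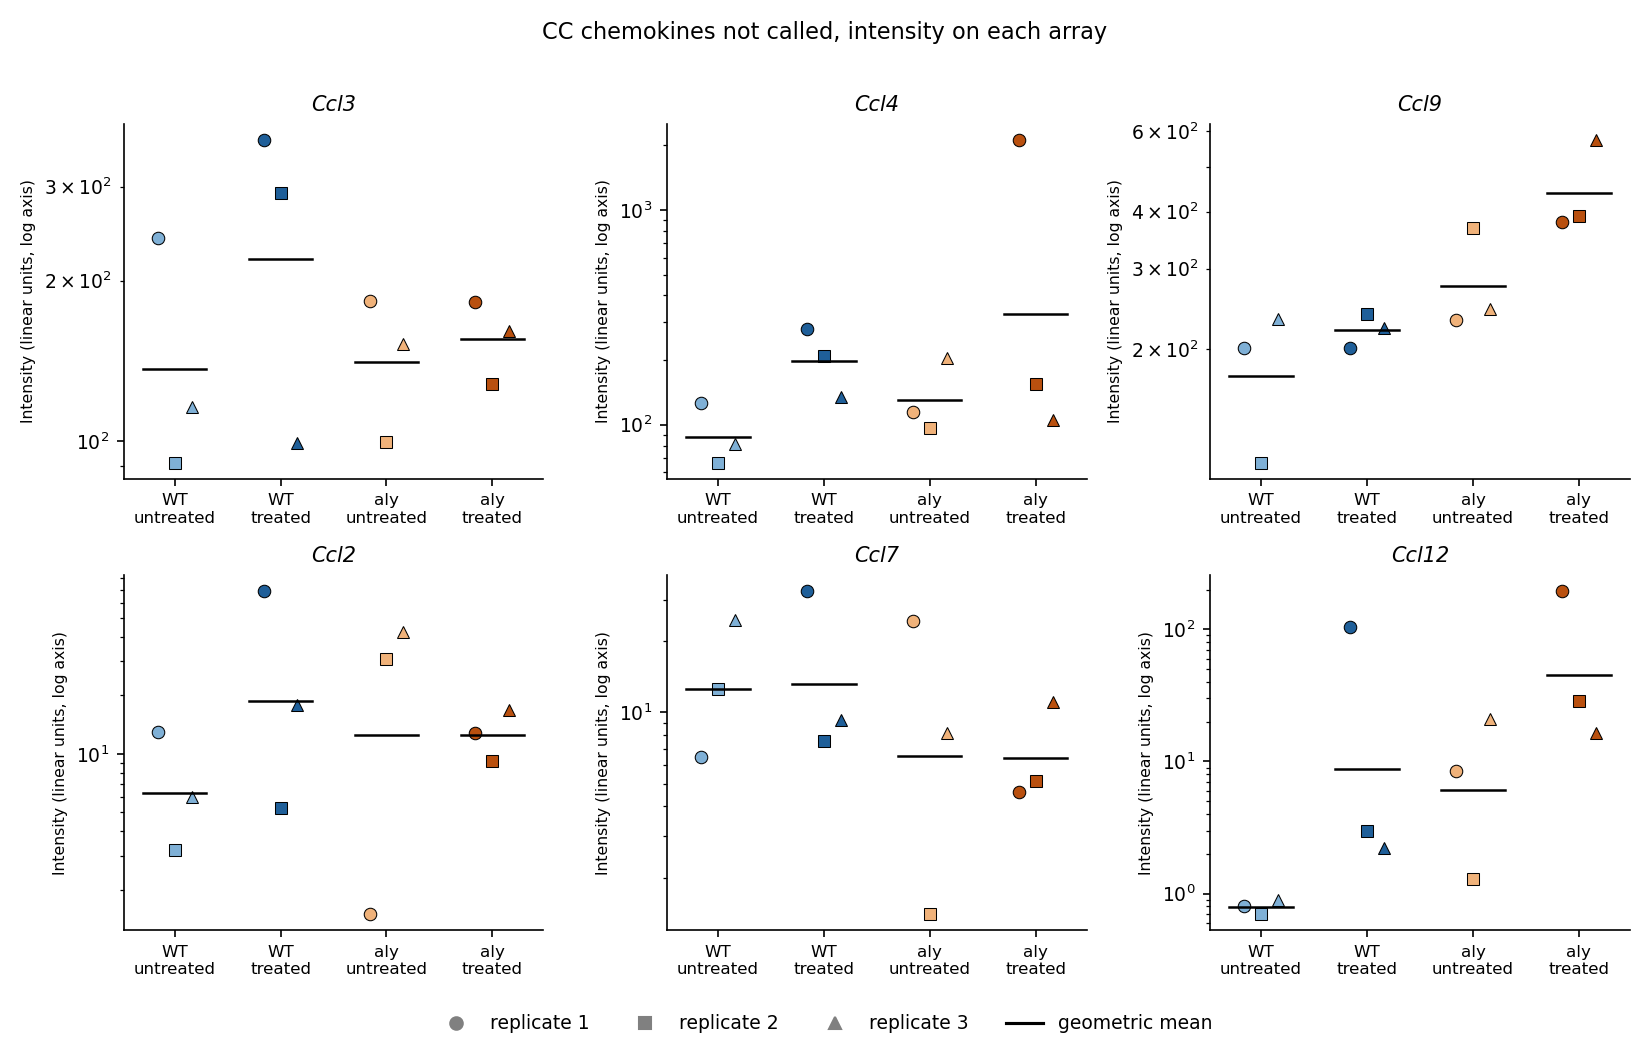
Intensity (linear units on a logarithmic axis with a scale of its own per gene) of Ccl3, Ccl4, Ccl9, Ccl2, Ccl7 and Ccl12 on each of the 12 arrays. Bars are geometric means of 3 arrays. Ccl4 (2123.3) and Ccl12 (194.4) peak on aly treated replicate 1.

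In aly DCs the treatment raised Ccl5, while Ccl22 and Ccl17 read higher without a call. Called were 1 higher and 0 lower of the 10 chemokines, against 0.486% of all genes, 0.453% higher and 0.0333% lower. Apart from Ccl5, those with an unadjusted p under 0.05 were Ccl22 (0.00898) and Ccl17 (0.00181). Arrays of the groups did not overlap for 4 chemokines, all higher in treated samples (6.02% of all genes, with 8.56% lower): Ccl22, Ccl17, Ccl5 and Ccl9. The median log2 change of the 10 was 0.957, and 0.314 without aly treated replicate 1, beside -0.076 and -0.104 over all genes.

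Ccl5 read 2044.4, 1109.8 and 542.8 on untreated aly replicates 1 to 3 and 14542.2, 5780.4 and 6646.1 on treated ones. All treated arrays were above all untreated ones, with replicate 1 the highest in both groups. The rise was 7.57-fold (log2 change 2.92 ± 0.50, adjusted p = 0.0176), and 2.51 without treated replicate 1 (adjusted p = 0.0288). The call was lost without untreated replicate 2 or 3 (adjusted p = 0.0671 and 0.0994), with 1 added in place of 16 (0.123) and when only the aly arrays were fitted (0.172). The difference between the responses of Ccl5 in aly and WT was -0.32 ± 0.70 (95% interval -1.82 to 1.17, adjusted p = 0.937), so a reduction of up to 1.82 log2 units is within the error.

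Ccl22 started higher and moved less in aly DCs. It read 730.7, 1085.7 and 502.1 untreated and 2349.6, 2462.4 and 1172.4 treated, without overlap. The log2 change was 1.34 ± 0.45 (2.54-fold) and was not called (adjusted p = 0.282). It was 1.19 without treated replicate 1 (adjusted p = 0.487).

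Ccl17 read 42.4, 25.2 and 78.1 on untreated aly arrays and 1407.2, 216.4 and 112.5 on treated ones. The groups did not overlap, and treated replicate 1 was by far the brightest. The log2 change of 2.52 ± 0.67 was not called (adjusted p = 0.15), and it was 1.50 without that array (adjusted p = 0.276). Leaving out treated replicate 3 instead gave 3.24 and a call (adjusted p = 0.0475).

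The same array set the readings of Ccl4 and Ccl12 in treated aly DCs. Ccl4 read 2123.3 there and 155.4 and 105.5 on the other treated arrays, against 114, 96.1 and 203.4 untreated. Its log2 change was 1.27 ± 0.76 with the array and -0.03 without it. Ccl12 read 194.4, 28.8 and 16.3 treated and 8.4, 1.3 and 21 untreated, and its log2 change of 1.43 ± 0.70 became 0.61. On that array the neutrophil genes summed to 15400 (80 to 3322 elsewhere). Those of marginal zone macrophages summed to 31490 (93.1 to 6327 elsewhere), nearly all of it Marco (31213.1). The part of such cells in the readings of Ccl4 and Ccl12 was not tested.

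Ccl6 read 607.2, 1345.5 and 1032.4 on untreated aly arrays and 175.8, 1212.4 and 331.1 on treated ones. Treated replicate 2 stayed within the untreated range, and the log2 change of -1.15 ± 0.55 was not called (adjusted p = 0.388). Without treated replicate 1 it was -0.56. The second probe set read 188.9, 117 and 315.6 untreated and 25.4, 87.7 and 100 treated, without overlap (-1.39, adjusted p = 0.278).

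Ccl9 read 230.9, 367.9 and 245 untreated and 378.7, 391.5 and 575 treated in aly, without overlap, and the change of 0.65 ± 0.36 was not called (adjusted p = 0.445). Ccl3 read 183.2, 99.7 and 152.4 untreated and 182.6, 128.2 and 160.8 treated (0.13 ± 0.47). Ccl2 spanned 1.5 to 42.2 untreated and 9.2 to 16.9 treated, and Ccl7 1.4 to 24.3 and 4.6 to 11.1. None of these 3 showed a change beyond the spread of its arrays.

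**Figure D3:**
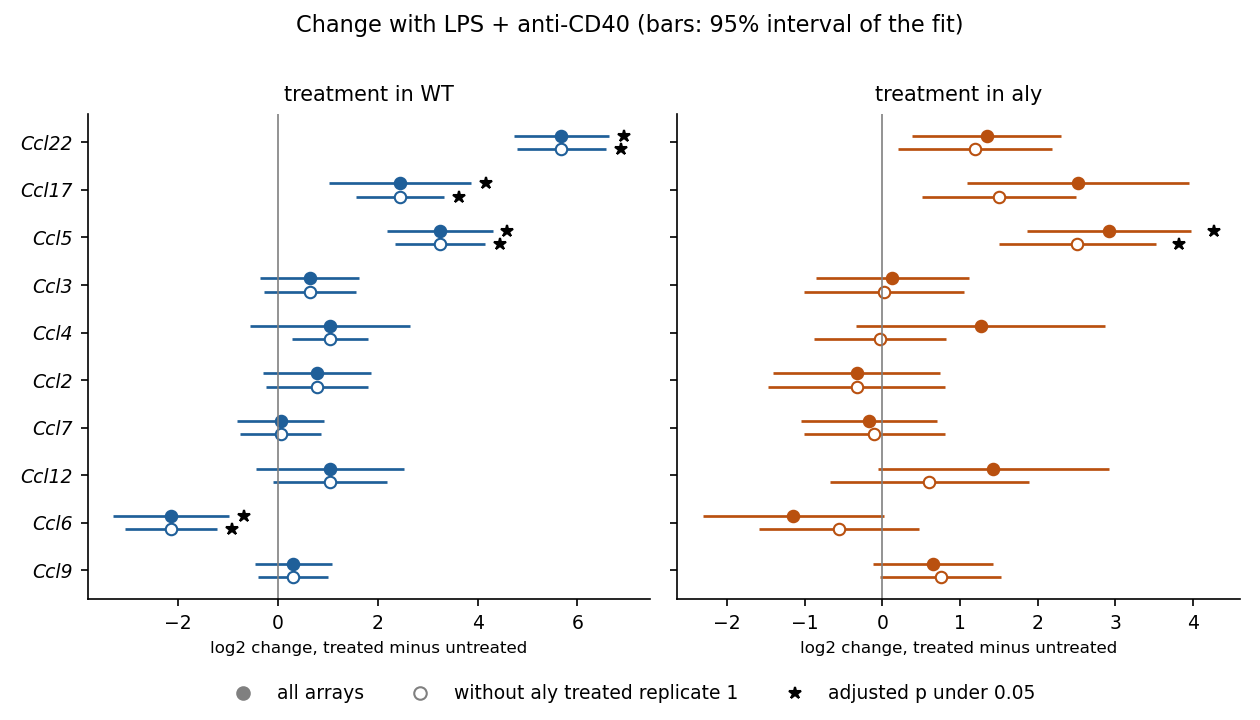
Log2 change with LPS and anti-CD40 of the 10 chemokines in WT (left) and aly (right) DCs, with 95% intervals of the fit. Filled points use all arrays, open points leave out aly treated replicate 1, and stars mark an adjusted p under 0.05. Ccl22 is at 5.68 in WT and 1.34 in aly, Ccl5 at 3.24 and 2.92.

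The next comparison asks whether the genotypes differ before treatment. Untreated aly DCs had more Ccl22 than untreated WT DCs, with every aly array (502.1 to 1085.7) above every WT array (78.2 to 102.5). It was the 1 chemokine of 10 called, where 0.553% of all genes were called, 0.499% higher and 0.0533% lower in aly. The log2 difference was 2.87 ± 0.45 (7.29-fold, 95% interval 1.91 to 3.82, adjusted p = 0.0186). It stayed between 2.59 and 3.13 over the 12 omissions of 1 array. The call was lost without WT untreated replicate 2 or 3 or aly untreated replicate 1, 2 or 3 (adjusted p = 0.128, 0.159, 0.128, 0.0767 and 0.0919), and Ccl22 was not called with 1 added in place of 16 (3.06, adjusted p = 0.156).

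The marker genes of other cells moved beside Ccl22. Red pulp macrophage genes read higher in the untreated aly samples, as given above. The 3 marginal zone macrophage genes summed to 1513 to 3213 in untreated aly and 93.1 to 594.1 in untreated WT samples. Most of the aly sum was Marco (1441.6 to 3115.1 against 19.8 to 497.8 in WT). Siglec1 read higher in aly as well (24.9 to 51.5 against 0.7 to 3.7), and Cd209b lower (19.6 to 57.6 against 72.6 to 92.6). The 4 measured erythroid genes summed to 791.7 to 1956 and 48.1 to 203.6, with Slc4a1 called higher in aly, and of 7 monocyte genes Fcgr1 was called higher. The log2 3' over 5' ratio also differed, at 1.398 to 1.719 on untreated WT and 2.326 to 2.696 on untreated aly arrays. The part of these cells and of RNA integrity or amplification in the Ccl22 difference was not tested. The maturation gene Ccr7, the receptor that leads DCs to lymphoid tissue, differed by -0.54 ± 0.38 between the same groups (adjusted p = 0.672). Its aly arrays all read below its WT arrays, an order that 9.86% of all genes showed. The part of maturation in the Ccl22 difference was not tested.

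Ccl17 and Ccl12 were also without overlap, both with the higher values in aly (3 chemokines with Ccl22, where 12.9% of genes showed this and 9.86% the opposite order). Ccl17 read 25.2 to 78.1 in aly and 11.9 to 22.7 in WT, and Ccl12 1.3 to 21 and 0.7 to 0.9. Neither was called (log2 differences 0.84 ± 0.67, adjusted p = 0.711, and 0.57 ± 0.70, adjusted p = 0.823). All 6 untreated Ccl12 values were below the 40th percentile of their array, where order carries little meaning. The other 7 chemokines overlapped, with log2 differences from -0.41 (Ccl5) to 0.70 (Ccl6). The median over the 10 was 0.592 and over all genes 0.104.

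After treatment 0 of the 10 chemokines were called between the genotypes, where 5.37% of all genes were called, 2.74% higher and 2.64% lower in aly. Without aly treated replicate 1, 2 were called, where 7.11% of all genes were. Blocks for replicate number or spike-in batch each gave 1 called chemokine, Ccl6. The limma fit gave an unadjusted p under 0.05 for Ccl22 (0.00499), Ccl6 (0.00733) and Ccl9 (0.0192). These 3 were also those without overlap, Ccl6 and Ccl9 with the higher values in aly (14.1% of all genes) and Ccl22 with the lower (10.1%).

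Treated aly DCs read 2349.6, 2462.4 and 1172.4 for Ccl22 against 6907.9, 2740.9 and 7749 in treated WT DCs. The lowest WT array was barely above the highest aly array. The log2 difference was -1.47 ± 0.45 (adjusted p = 0.0685). Ccl22 was called lower in aly without aly treated replicate 1 (-1.62, adjusted p = 0.0456), without WT treated replicate 2 (-1.94, adjusted p = 0.0333) with arrays centred on their median (-1.72, adjusted p = 0.045) and with array weights (-1.37, adjusted p = 0.0158). In the same comparison 2 of 6 genes of the cDC2 subset of DCs were called lower in aly, Irf4 (129.9 to 216.1 against 1099.3 to 1494) and Esam (138.4 to 239.5 against 559.5 to 1172.7). Summed over the 6 cDC2 genes, the intensity was 2618 to 3768 in aly and 2719 to 3845 in WT. Their median log2 difference was 0.838, with Sirpa at 1912.4 to 3000.2 in aly and 814.1 to 2118.5 in WT. Cd4 read 116.2 to 235.2 and 15.6 to 141.9. Of 5 plasmacytoid DC genes Tcf4 was called lower, and of 7 cDC1 genes Cadm1 was called higher. Irf4 was also called higher with treatment in WT. In untreated aly Irf4 (232.2 to 319.4 against 450 to 512) and Esam (139.6 to 232.6 against 364.3 to 465.3) read below untreated WT too. The part of DC subsets in the Ccl22 reading was not tested.

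Ccl6 read 175.8, 1212.4 and 331.1 in treated aly and 104.8, 162.7 and 97.7 in treated WT DCs, a log2 difference of 1.69 ± 0.55 (adjusted p = 0.0826). Without aly treated replicate 1 it was 2.28 and called (adjusted p = 0.0114). Ccl6 was also called with the replicate number as a block (adjusted p = 0.045), with a block for the spike-in batch (0.0404) and with array weights (2.76, adjusted p = 0.000285). The difference was 2.20 in replicates 2 and 3 alone (adjusted p = 0.0319) and 0.67 in replicate 1 alone. The second probe set of Ccl6 gave a smaller difference of 0.70 (adjusted p = 0.379), with 25.4, 87.7 and 100 in aly and 25.3, 37.2 and 36.7 in WT. Ccl9 read 378.7 to 575 in aly and 200.9 to 238.7 in WT (0.95 ± 0.36, adjusted p = 0.135), but its dim probe set gave -0.12. Myeloid cells other than DCs express Ccl6 and Ccl9, and the 7 measured monocyte genes summed to 17910 to 22570 in treated aly and 9486 to 13140 in treated WT samples. Of the 7, Csf1r alone was called (9273.3 to 14031 in aly, 465.3 to 4259.2 in WT), and it made up much of the sum. Plac8 read 3209.9 to 6852.7 in aly and 4312 to 8296.3 in WT, and the median log2 difference of the 7 was 1.21. The part of such cells in the readings of Ccl6 and Ccl9 was not tested.

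Ccl5 was not called between the treated genotypes except with array weights (-1.17, adjusted p = 0.0374). Its difference was -0.73 ± 0.50 (adjusted p = 0.399, and -1.14 without aly treated replicate 1, adjusted p = 0.17). Ccl17 turned from 0.91 ± 0.67 to -0.10 and Ccl4 from 0.72 ± 0.76 to -0.58 when that array was left out. Their direction between the treated genotypes thus depends on 1 array. The median over the 10 chemokines was 0.142, and -0.407 without the array, beside 0.188 and 0.119 over all genes.

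The interaction compares the response to treatment in aly with that in WT. Ccl22 was the 1 chemokine called, with an aly minus WT difference in response of -4.34 ± 0.64 log2 units (95% interval -5.69 to -2.98, adjusted p = 0.0108), where 0.153% of all genes were called. Both parts entered it: Ccl22 was higher in aly before treatment and read lower after it. Without aly treated replicate 1 the interaction was -4.49 (adjusted p = 0.00415). It ranged from -4.81 to -3.99 over the 12 omissions, and the call was lost when WT untreated replicate 2 was left out (adjusted p = 0.0532) and when WT treated replicate 3 was (0.0522). With 1 added in place of 16 it was -4.54 and not called (adjusted p = 0.0845). In replicates 2 and 3 alone it was -4.40 and not called (adjusted p = 0.064), and in replicate 1 alone -4.21.

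For Ccl17, which lies close to Ccl22 and has the same receptor, the interaction was 0.07 ± 0.95 (95% interval -1.95 to 2.10), and -0.94 without aly treated replicate 1 (-2.27 to 0.39). The difference between these 2 genes was not tested. The interactions of the remaining 8 chemokines lay between -1.11 (Ccl2) and 0.99 (Ccl6) and none was called.

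**Figure D4:**
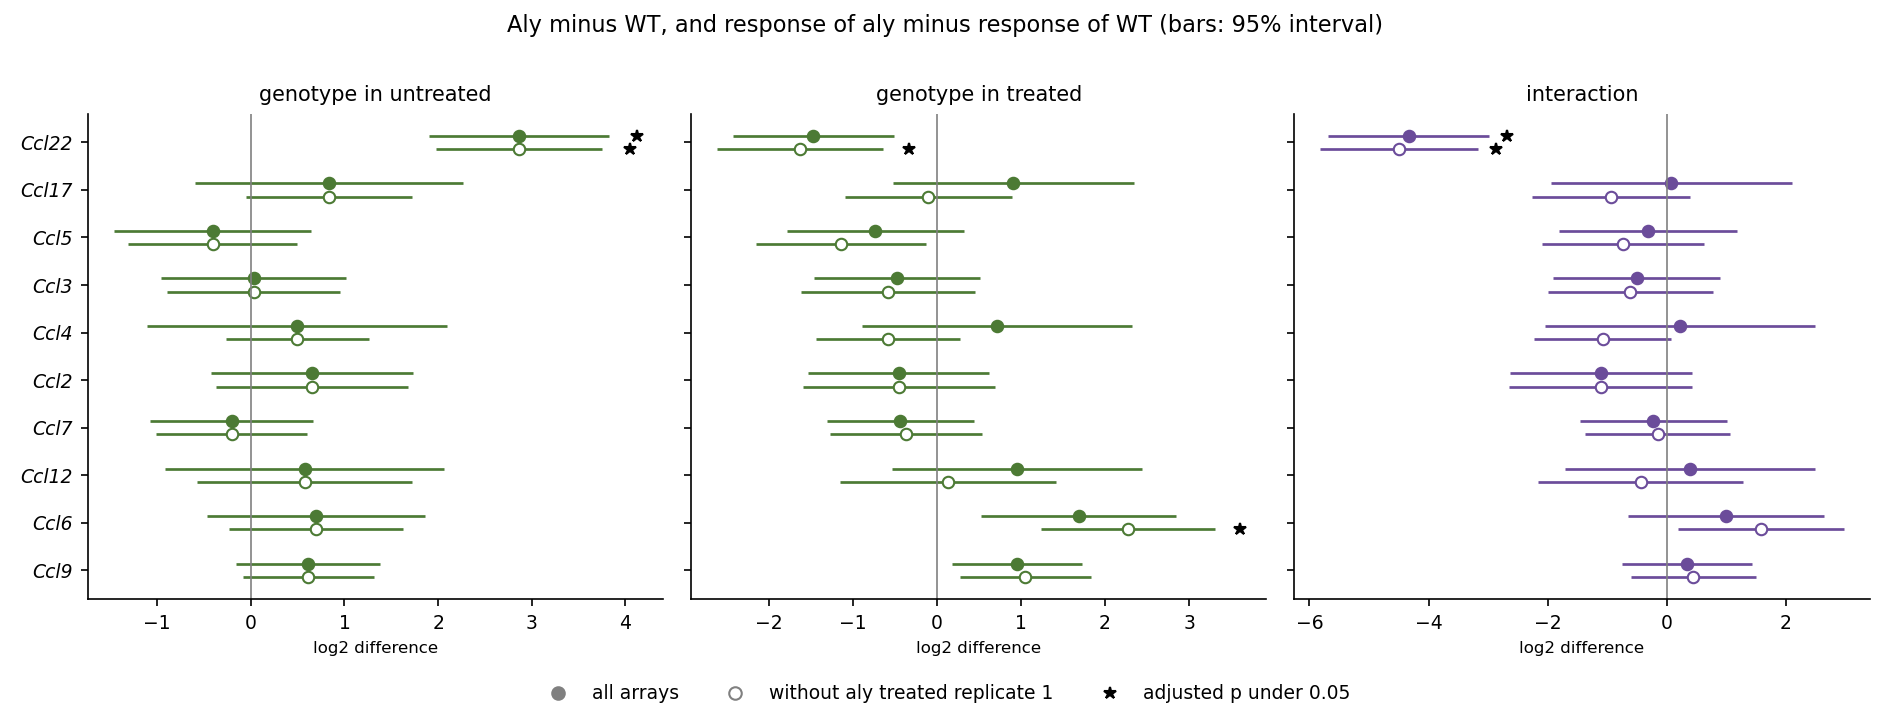
Log2 difference of aly minus WT in untreated (left) and treated DCs (middle), and of the response of aly minus that of WT (right), for the 10 chemokines with 95% intervals. Filled points use all arrays, open points leave out aly treated replicate 1, and stars mark an adjusted p under 0.05. Ccl22 is at 2.87 untreated, -1.47 treated and -4.34 in the interaction.

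Across the 12 arrays the log2 values of Ccl22, Ccl17 and Ccl5 went together (Pearson r of 0.735 to 0.772 between pairs), and Ccl6 ran opposite to Ccl5 (-0.827). Ccl17, Ccl4 and Ccl12 had r of 0.858 to 0.879, which without aly treated replicate 1 was 0.726 for Ccl17 with Ccl4 and 0.753 for Ccl17 with Ccl12. These values describe 12 arrays that share their groups. The genes most like Ccl22 over these arrays were Tmcc3 (r = 0.971), Pigyl (0.966) and Rragd (0.958). Those most like Ccl5 were Dok1 (0.982), Helz2 (0.981) and H2-Q5 (0.972), and those most like Ccl17 were Acod1 (0.976), Trip12 (0.972) and Cmc2 (0.969). The genes most like Ccl6 were Cd24a (0.96), Ccpg1 (0.956) and Antkmt (0.956).

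Of 11 other CC chemokines listed, 6 were measured and 0 were called by limma in any of the 5 comparisons. An unadjusted p under 0.05 was reached by 1 of the 6 between untreated and 2 between treated genotypes, and by 0 in the other comparisons. In WT treatment their changes ran from -0.69 (Ccl1) to 0.85 (Ccl8), with a median of -0.059. Of the receptors that read these ligands, 7 of 10 were measured. In WT DCs Ccr7 rose (4.74 ± 0.38, adjusted p = 2.02e-06), and Ccr2, the receptor of Ccl2, Ccl7 and Ccl12 (-2.32 ± 0.55, adjusted p = 0.0142), and Ccr9 (-2.61 ± 0.54, adjusted p = 0.00599) fell. Ccr6 was not called (-1.18, adjusted p = 0.0689). In aly DCs Ccr7 alone of the 7 was called (3.44 ± 0.38, adjusted p = 0.00057).

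Among 4 genes listed as atypical receptors, most of which bind chemokines without the usual signalling, Ccrl2 rose in WT (1.38 ± 0.38, adjusted p = 0.0304). Before treatment Ccrl2 differed by -1.17 ± 0.38 between the genotypes (aly minus WT, adjusted p = 0.236), without overlap, as did 9.86% of genes in this direction. It was lower in treated aly than in treated WT DCs (-2.89 ± 0.38, adjusted p = 0.00122). Ccr7 was lower there as well (-1.83 ± 0.38, adjusted p = 0.0139). All 4 measured NF-kB subunits rose in WT: Nfkb2 (3.39), Relb (2.62), Rel (1.91) and Rela (1.69). In aly none was called (0.13 for Rela to 1.83 for Nfkb2), with Nfkb2 at an unadjusted p of 0.00162 and Relb at 0.0401. Relb (-1.92, adjusted p = 0.0206) and Rel (-1.95, adjusted p = 0.00578) were lower in treated aly than in treated WT DCs. Map3k14 itself read 0.08 ± 0.50 between the untreated genotypes (adjusted p = 0.975), and its probe set does not read the mutation. Of the 10 chemokines, 8 lie on chromosome 11, as Map3k14 does, with 296 to 325 measured genes between them and it, and Ccl22 and Ccl17 lie on chromosome 8.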

How the data were processed

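RNA of pooled splenic DCs was amplified in 2 rounds, labelled with biotin per the labels' protocols, and hybridised to 12 arrays. The deposited intensity values are linear, with 1 value per probe set, and were scaled by the authors to the same 2% trimmed mean (150.001) on every array, as the values show. No source used here gives the software, background step or detection calls. Probe sets were named through the platform annotation (34945 with 1 symbol, 932 with several and 9160 with none).

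Values were set to log2(intensity + 16). A probe set was kept if 3 or more arrays had it over their own 40th percentile, and each gene was read by its probe set of highest mean, which left 15019 genes. All 12 arrays were fitted with 1 mean per group in limma 3.58.1 (R 4.3.3), with Benjamini-Hochberg adjustment over all genes and a threshold of 0.05. All 10 chemokines are named, with Map3k14, up to 4 genes of each other list by smallest p in WT treatment, and the 3 genes most like a chemokine by Pearson r. The chemokines and lists were chosen with earlier results of these data known. Alternatives changed the offset, scaling, filter, probe set choice, blocks, weights, fitted samples and variance model, and left out each array. The fit was tested on simulated data.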

Additional observations from a re-analysis of the deposited data

Results flagged for a closer look

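The response of Ccl22 to LPS with anti-CD40 differed between the genotypes by -4.34 log2 units (aly minus WT), by the interaction term of the limma fit. The same gene differed in direction between the states: every untreated aly array was above every untreated WT array, and every treated aly array below every treated WT array. The aly minus WT difference was 2.87 in untreated and -1.47 in treated DCs, and the second was not called (adjusted p = 0.0685), while the interaction (-4.34) and the untreated difference passed the threshold. The interaction was not called with 1 added in place of 16 (-4.54, adjusted p = 0.0845), in replicates 2 and 3 alone (-4.40, adjusted p = 0.064), or when either WT untreated replicate 2 or WT treated replicate 3 was left out.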

How the results depend on the processing

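Treatment in WT called 4 of the 10 chemokines, and 2 to 4 when 1 array was left out. Treatment in aly called 1, and 0 with 1 added in place of 16, 0 with only the aly arrays fitted, 2 with array weights, and 0 to 2 without 1 array. The untreated genotypes gave 1, and 0 with 1 added in place of 16, with 0 to 1 without 1 array. The interaction gave 1, and 0 with 1 added, 0 in replicates 2 and 3 alone, and 0 to 1 without 1 array. The treated genotypes gave 0, and 1 with median centring (Ccl22), 1 with a block for the spike-in batch (Ccl6), 1 in replicates 2 and 3 alone (Ccl6), 3 with array weights (Ccl6, Ccl22 and Ccl5), and 0 to 2 without 1 array. The causes were not tested. Among 725 values under other settings 687 stayed on their side of the threshold or within the margin, and among 600 without 1 array 578 did. No called value changed sign, while 27 and 30 uncalled ones did.

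Arrays of the same replicate number in different groups had correlations of their deviations from -0.031 to 0.303, above 0.1 in 8 of 18 pairs, and those of different numbers were above 0.1 in 2 of 36. In untreated WT and aly samples all 3 same-number pairs were above 0.1 (0.156, 0.227 and 0.181), and 9 of 12 arrays correlated best with their own number, a hint of shared numbers in the data. Not every pair exceeded 0.1 and the labels state no pairing, so the fit without a block was kept. This rule cannot show that the arrays are unpaired, and the call of Ccl6 between treated genotypes depends on the choice. Between the untreated genotypes the block left Ccl22 called (adjusted p = 0.0114). With the replicate number as a block the treated genotypes gave 1 called chemokine (Ccl6, 1.69, adjusted p = 0.045).

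Without aly treated replicate 1 the share of all genes called was 18.9% in WT treatment (9.71% with it), 2.64% between untreated genotypes (0.553%) and 0.752% in the interaction (0.153%). The 3 pools per group limit the precision. Signals near the added 16 limit Ccl2, Ccl7, Ccl12 and Ccl17.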
